A study of Caenorhabditis elegans with 4 samples.

Results

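NFYA-1 peaks in the centre of chromosome V of Caenorhabditis elegans are described here, as mapped by chromatin immunoprecipitation and sequencing (ChIP-seq) in late embryos. A combined peak was a member when its midpoint lay on V from 6 Mb to below 16.5 Mb in genome build WS180. This rule of position used no peak value, but its bounds were chosen with earlier results of these data known. It took 474 of the 5320 peaks in the authors' combined list. By the same bounds it took 256 of 2907 peaks listed for ChIP replicate 1 and 296 of 3319 listed for ChIP replicate 2.

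NFYA-1 is the worm form of NF-YA, the subunit of the NF-Y complex that reads the CCAAT box, while the NF-YB and NF-YC subunits bind DNA through histone folds. NF-Y commonly binds promoters, and in C. elegans it is known for repressing the Hox gene egl-5. Worm autosomes have a centre that recombines rarely and is rich in conserved genes, between arms that recombine often and hold more repeats. Chromosome V is known for its many chemoreceptor gene families.

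All samples came from strain OP404, as hermaphrodite late embryos of worms grown at 20 °C. The strain carried the unc-119(ed3) mutation on chromosome III and the transgene wgIs404, in which nfya-1 is joined to a TY1-GFP-3xFLA tag and which also holds unc-119(+). The series had 2 ChIP libraries and 2 input libraries, which share every allele. The tagged nfya-1 gene was a transgene put in by bombardment, the labels name no deletion of the endogenous gene, and the 4 samples include no strain without the tag. Nothing in the labels says whether the replicates came from separate cultures. Peaks were called with PeakSeq, and the only value per peak was the authors' q-value, which is a p-value after multiple-testing correction. Strength is given as −log10 q, which depends on read depth as well as on enrichment, and the depth of each library is unknown. Genes and sequence at these positions were not analysed here, because neither a genome nor an annotation of build WS180 was used, so regions are named by position.

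Most members were weak peaks, and a few were much stronger. Their median −log10 q was 7.73 (quartiles 4.72 and 14.6), with a range from 3.49 to 190. Over all 5320 combined peaks the median was 8.15. Values above 50 were reached by 10 members (2.11%), against 4.15% of all combined peaks and 12 of 368 peaks on the V arms (3.26%). In the centres of II, III and IV the shares were 2.14%, 3.33% and 3.13%. Chromosome V had 3 of the 20 strongest combined peaks in the genome and 4 of the 50 strongest, all of them in its centre. Further down, the centre and the arms had similar numbers, with 9 and 11 of the 200 strongest peaks, 32 and 28 of the 500 strongest, and 68 and 69 of the 1000 strongest. The 32 members made up 6.40% of the 500 strongest, where members are 8.91% of all combined peaks. The strongest peak on the arms of V reached 78.1. Ranks in the combined list need not match those in the replicates, which gave some peaks elsewhere much larger values. Between 8 and 9 Mb of III the largest −log10 q was 123 combined, 309 in replicate 1 and 278 in replicate 2. Between 5 and 6 Mb of II it was 58.4, 251 and 254. The 3 strongest members ranked 11, 12 and 15 in replicate 1 and 7, 9 and 17 in replicate 2.

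The leading region ran over V:9730702-9732240. Its q was 5.74e-191 in the combined list, 5.85e-134 in replicate 1 and 1.97e-106 in replicate 2. It ranked first among members by combined q, but each replicate had it behind the next pair of regions. First in both replicates was V:6098618-6101481, second in the combined list with a q of 1.22e-183. Its strongest part lay at its right side. Replicate 1 placed it from 6100337 to 6101210 (q of 4.98e-154) and replicate 2 from 6100273 to 6101510 (q of 1.26e-157). A second replicate 1 peak to its left, from 6099234 to 6100124, had a q of only 9.15e-05, and the replicate 2 list had no separate peak there.

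The third region, V:14685532-14689640, was the widest member at 4109 bp, and both replicates divided it into a strong and a weak part. In replicate 1 the left part had a q of 7.62e-140, and in replicate 2 it had 8.37e-141. The right part, from 14688575 to 14689540 by replicate 1, had 1.12e-08 there and 8.23e-09 in replicate 2. The same arrangement was seen at the fourth region, V:6227201-6228787, whose combined q was 4.17e-115. There replicate 1 gave the left peak 4.77e-59 and the right peak 1.05e-07, and replicate 2 gave them 1.78e-43 and 2.36e-05. This region had close neighbours. V:6222763-6225813, the second widest member at 3051 bp, ended before it with a combined q of 1.82e-58. V:6229125-6229862 followed it and was found in replicate 2 alone.

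The other 7 of the 12 strongest members found in both replicates were spread over the centre. V:9342988-9344672 had a combined q of 6.68e-79 and V:16361194-16361826 one of 8.22e-78. The second of these was narrow for its strength, at 633 bp, and replicate 2 gave it the smaller q (8.15e-62, against 9.68e-47). Combined q-values were 4.30e-58 for V:13788361-13790003, 5.52e-57 for V:10174413-10175145 and 5.31e-54 for V:10466488-10467453. V:14696698-14697373 had 1.81e-50, and V:12465005-12465954 had 1.25e-45. Replicate 1 had the smaller q in 9 of these 12 regions. Over all 216 members found in both replicates it did so in 98 (45.4%), and over the 2469 such peaks of the genome in 1218 (49.3%).

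Wide members were few, and their part of the bound length was near that of the genome. The median width was 361.5 bp, and 17 members (3.59%, 95% exact interval 2.10 to 5.68) were at least 1000 bp wide. These 17 held 30.2 of the 209.3 kb covered by all members (14.4%, against 12.7% over all combined peaks). On the whole combined list 200 of 5320 peaks were that wide (3.76%). Both replicates held 15 of the 17, and 161 of the 200 (80.5%). The exceptions, V:11958232-11959299 and V:10718407-10719580, were in neither. In 7 members, each at least 1000 bp wide, at least 1 replicate listed 2 peaks inside the combined interval. Besides the regions already described these included V:10715288-10717932, with a combined q of 4.41e-36, which each replicate split into 2 peaks. Stronger members tended to be wider (Spearman's rho of 0.559 across 474 peaks, a description only). At the other end, 4 members were narrower than 100 bp, from 98 bp down to the single base V:6890934, and none of the 4 was in a replicate list. Over all combined peaks, 81 of the 84 that narrow were in neither (96.4%).

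Support from the replicates was near that of the genome. Of the 474 members, 216 overlapped a peak of both replicates by at least 1 bp (45.6%, 95% exact interval 41.02 to 50.17), where the share over all combined peaks was 46.4%. A further 35 overlapped replicate 1 alone (7.38%, against 7.39% over all combined peaks) and 67 replicate 2 alone (14.1%, against 14.1% over all). The remaining 156 overlapped neither (32.9%, against 32.1%). The combined list was made from the same libraries, so these shares describe support and are not independent evidence. Counted from the replicate lists, 217 of 256 replicate 1 peaks in the V centre were found in replicate 2 (84.8%, against 85.7% over all replicate 1 peaks). Of 296 replicate 2 peaks, 217 were found in replicate 1 (73.3%, against 75.0%).

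Members in both replicates were mostly stronger than the others, as combined and replicate values come from the same libraries. The classes overlapped, since −log10 q went down to 5.46 for members in both and up to 11.1 for those in neither. The 135 strongest members were all in both replicates. The next, V:13393053-13393871, had a combined q of 1.10e-13 and was found in replicate 1 alone, with a q of 1.91e-06. The strongest member in replicate 2 alone was V:10894634-10895227, with a combined q of 9.79e-12 and a replicate q of 6.07e-06. The strongest in neither was V:11123945-11124250, with a combined q of 7.10e-12. Median −log10 q was 15.2 for members in both replicates, 5.63 for those in replicate 1 alone, 5.96 for those in replicate 2 alone and 4.52 for those in neither. When the members were divided into 4 groups of nearly equal size by strength, those in both replicates made up 119 of 119, 88 of 118, 9 of 118 and 0 of 119, from strongest to weakest. A list contains only what passed its own threshold, so a weak peak can miss 1 list by little, and its absence there was not shown.

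**Figure D1:**
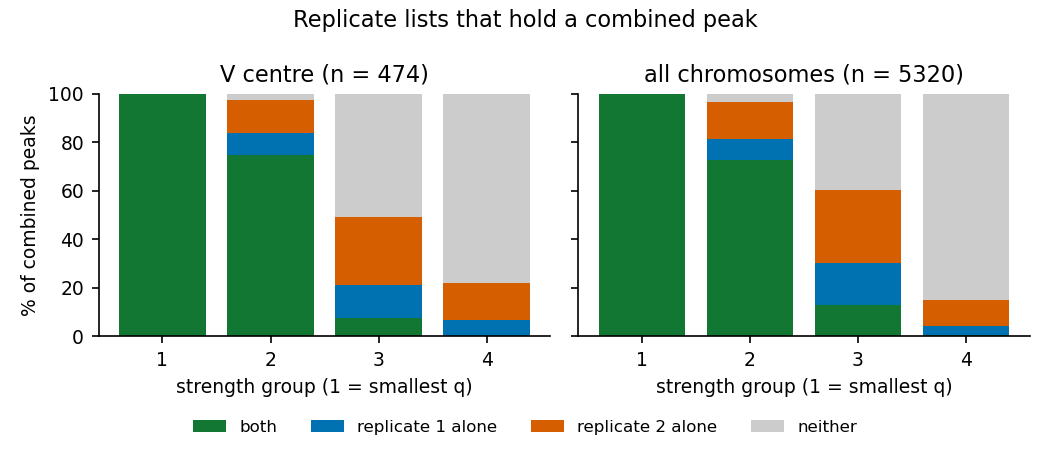
Bars divide the combined peaks of 4 strength groups (group 1 has the smallest q) into those found in both replicates, in 1 alone or in neither, in percent, for the V centre and for all chromosomes. In the V centre the share in both falls from 100% in the strongest group to 74.6%, 7.63% and 0% in the others, and over all chromosomes it runs through 99.7%, 72.6%, 13.0% and 0.376%.

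Where both replicates held a member, its strength could be set side by side in them, among peaks that had passed both thresholds. The difference in −log10 q, replicate 1 minus replicate 2, had a median of -0.39 over the 216 members (quartiles -2.22 and 1.72), and of -0.03 over the same 2469 peaks of the genome (quartiles -1.98 and 1.94). It ran from -15.1 to 27.5 among members, and both ends were among the 12 leading regions. By the ratio of the −log10 q values, which served only to choose regions to name, the one most in favour of replicate 2 was V:6043363-6044184, where replicate 1 had a q of 0.000225 and replicate 2 one of 2.78e-11. The one most in favour of replicate 1 was V:14830576-14832815, with 9.84e-12 in replicate 1 and 3.78e-05 in replicate 2. Across the 216 members Spearman's rho between the replicates was 0.765, against 0.822 over all chromosomes and 0.819 on the V arms. In the centres of II, III and IV it was 0.761, 0.837 and 0.786. These are descriptions only, since all values of a replicate come from 1 library. No strong replicate peak of the V centre was missing from the combined list. The replicate peaks without a combined interval were 1 of 256 in replicate 1 and 7 of 296 in replicate 2. Over all chromosomes there were 22 of 2907 and 74 of 3319. The 8 in the V centre were each in 1 replicate only, and their smallest q was 2.11e-05, at V:11933317-11933562.

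**Figure D2:**
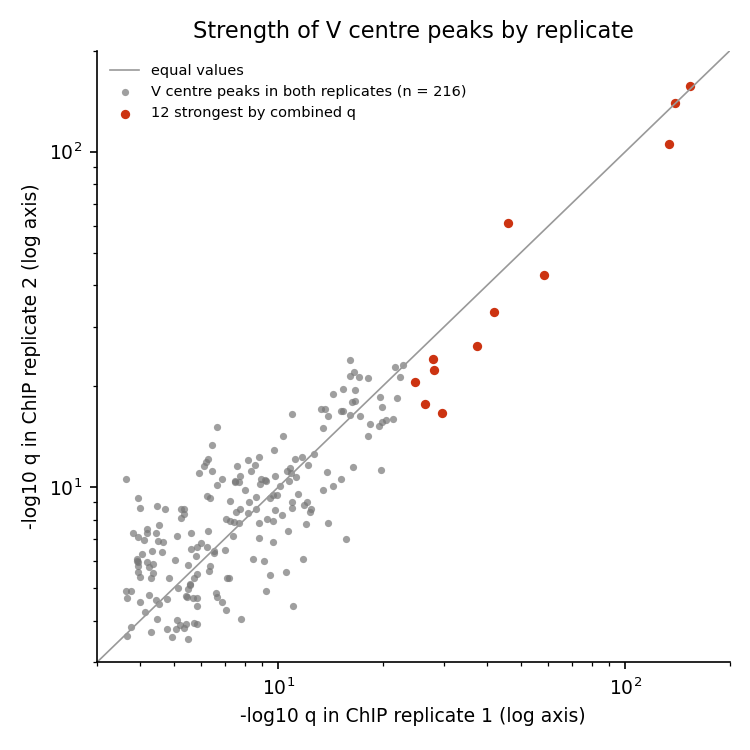
Each point is 1 of the 216 V centre peaks found in both replicates, placed by its −log10 q in replicate 1 (horizontal, log axis) and in replicate 2 (vertical, log axis), with the 12 strongest by combined q in red and a line at equal values. The 3 leading regions lie above 100 in both replicates, and 9 of the 12 red points lie on the replicate 1 side of the line.

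Peaks were unevenly spread along the V centre. Its 10 full 1 Mb bins held 45.7 ± 10.4 combined peaks (SD over bins), 24.7 ± 8.17 replicate 1 peaks and 28.5 ± 8.30 replicate 2 peaks. Other regions varied too, with a combined SD of 10.8 on the V left arm and 5.13 on the right arm. In the centres of II, III and IV it was 9.17, 15.3 and 7.95. The richest bin of the V centre in each list was 11 to 12 Mb. There the combined list had 66 peaks, replicate 1 had 41 and replicate 2 had 44. It also had the largest share of its peaks in both replicates, at 37 of 66 (56.1%). None of the 12 leading regions lay in this bin, whose strongest peak had a −log10 q of 38.4. Next came 14 to 15 Mb, with 58 combined peaks and 2 of the 12 leading regions.

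Sparse bins adjoined each other on the left of the centre. From 7 to 8 Mb the combined list had 30 peaks, replicate 1 had 14 and replicate 2 had 17, and from 8 to 9 Mb they had 35, 13 and 18. The share in both replicates was 36.7% in the first and 31.4% in the second, which was the lowest of the 10. The bin from 6 to 7 Mb, on their left, held 43 combined peaks and 3 of the 12 leading regions. Replicate 2 had more peaks than replicate 1 in 9 of 10 bins and as many in the other. Its list was also the longer one over all chromosomes, with 3319 peaks against 2907.

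At finer scale, 6 of the 105 windows of 100 kb held no combined peak (5.71%). There were 0 such windows among 70 in the centre of II and 65 in that of III, and 1 among 90 in that of IV. The contrast was smaller in the replicate lists. Replicate 1 left 12.4% of windows empty in the V centre, against 7.14% in the II centre, 6.15% in the III centre and 8.89% in the IV centre. Replicate 2 left 7.62%, 7.14%, 3.08% and 4.44% empty in the same order, so the V and II centres were nearly level there. These shares were not tested and take no account of density. The V centre had 45.1 combined peaks per Mb, against 66.9, 87.8 and 53.2 in the centres of II, III and IV. The fullest windows held 12 combined peaks, at 9200001 to 9300000 and at 11000001 to 11100000, but they differed in the replicates. The first had 3 peaks found in both, and the second had 8. The longest stretch without a combined peak ran from 15191288 to 15395351, over 204.1 kb, and no midpoint of a replicate peak fell in it. The next ones, of 179.2, 169.4, 139.9 and 138.6 kb, all began between 6890935 and 8956999 and were empty in both replicates too. Elsewhere the longest gap between combined peaks was 285582 bp on the V left arm, 359872 bp on the right arm and 265661 bp in the IV centre. In the II and III centres it was shorter, at 129830 and 90619 bp. The median gap between neighbouring members was 9907 bp, and 52 of 473 gaps were under 1000 bp (11.0%, against 10.6% over all chromosomes). The largest group joined by such gaps had 4 peaks, from 11073339 to 11075954, in the rich bin.

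Combined peaks were denser in the V centre than on the V arms, whose lowest full bins lay from 17 to 20 Mb on the right. The centre had 45.1 peaks per Mb, and the arms together had 35.5, with their length counted from the first and to the last peak of V. The ratio was 1.27 (95% exact interval 1.11 to 1.46), with a two-sided exact binomial test giving an adjusted p of 0.00150 over 8 comparisons. The ratio was 1.23 in replicate 1 alone, which did not pass the same exact test (adjusted p = 0.0768), and 1.25 in replicate 2 alone (adjusted p = 0.0273). It was 1.16 in the stronger part of the combined list and did not pass there either (exact test, adjusted p = 0.276). Tests over peaks measure counting error only, since neighbouring peaks are not independent. Paired within each of the 2 ChIP libraries, an exact two-sided sign-flip test of the log2 ratio gave p = 0.5 for each of the 4 density comparisons, the smallest that 2 libraries allow.

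Taken one arm at a time, a comparison chosen after the values were seen, the left arm had 42.7 peaks per Mb, with a ratio of 1.06 (exact interval 0.906 to 1.23). The right arm had 25.6 per Mb, with a ratio of 1.76 (exact interval 1.43 to 2.19). The replicates gave 1.01 and 1.06 for the left arm, and 1.72 and 1.69 for the right arm. On the right arm the 3 bins from 17 to 20 Mb held 12, 19 and 22 combined peaks, fewer than any full bin of the centre. The first 500 kb of that arm held 21, against 17 in the last 500 kb of the centre, so the density did not drop at the bound itself. Beyond 20 Mb, the last bin of the arm held 38 combined peaks at 43.4 per Mb, near the 45.1 of the centre. Without 17 to 20 Mb the ratio of centre to arms was 1.06 (exact interval 0.914 to 1.22). That stretch was picked for its low counts, and no low bins of the centre were left out, so the ratio had to fall. The members next to the bounds were V:6000273-6000801 and V:16499046-16499446, and the nearest peaks outside were V:5995672-5995854 and V:16537808-16538493.

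**Figure D3:**
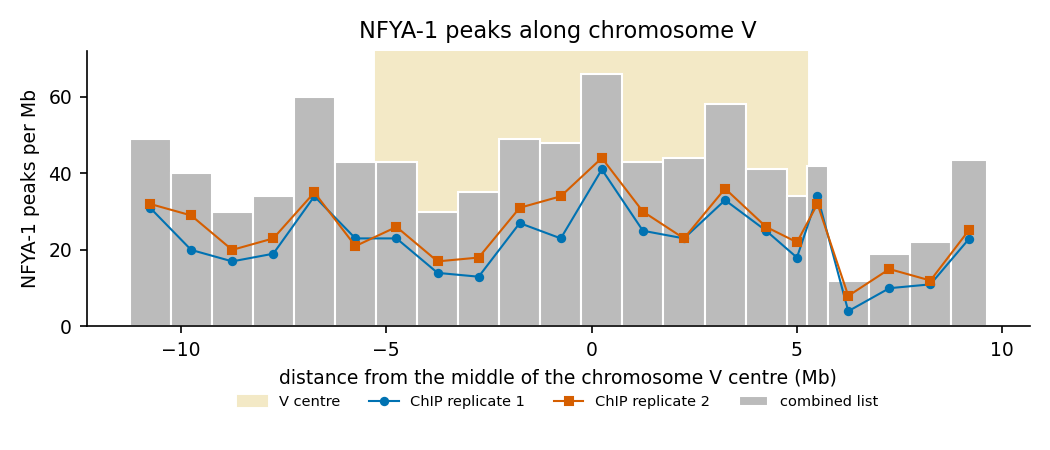
Bars give combined NFYA-1 peaks per Mb in bins of 1 Mb along chromosome V (shorter bins at the right bound of the centre and at the right end), lines give each replicate, and the horizontal axis is the distance in Mb from the middle of the shaded V centre. The centre ranges from 30 to 66 combined peaks per full bin, the left arm from 30 to 60, and the lowest bins (12, 19 and 22) are on the right arm.

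Among autosome centres, that of V was the sparsest of the 4 compared. The centres of II (5 to 12 Mb) and III (4 to 10.5 Mb) had 66.9 and 87.8 combined peaks per Mb. The V centre had 0.675 times the density of the first (exact interval 0.593 to 0.769, exact binomial adjusted p = 7.76e-09) and 0.514 times that of the second (0.454 to 0.581, exact binomial adjusted p = 8.05e-26). Replicate 1 gave 0.675 and 0.494, and replicate 2 gave 0.653 and 0.483. These p-values count peaks as independent, and the bounds were chosen with earlier results of these data known. In windows of 100 kb the combined counts were more clustered than independent counts. Their variance over mean was 1.82 in the V centre and 2.25, 1.68 and 1.42 in those of II, III and IV. The intervals are therefore too narrow and the p-values too small, here and for the IV centre. In 1 Mb bins, 9 of 10 bins of the V centre lay below the lowest bin of the II centre, which held 59 combined peaks, and 10 of 10 lay below the lowest of the III centre, with 73. In the replicate lists the separation was less complete. Against the II centre it was 7 of 10 bins in replicate 1 and 6 of 10 in replicate 2, and against the III centre it was 9 of 10 in each.

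The centre of IV (4 to 13 Mb) was closer, at 53.2 combined peaks per Mb. With peaks counted as independent, the ratio of 0.848 (exact interval 0.745 to 0.965) passed the exact binomial test with an adjusted p of 0.0225. That call was lost in each replicate list alone, at 0.854 (exact test, adjusted p = 0.153) and 0.869 (exact test, adjusted p = 0.180). It was also lost without the sparse V bin from 7 to 8 Mb, at 0.878 (exact test, adjusted p = 0.104), and without that from 8 to 9 Mb, at 0.868 (exact test, adjusted p = 0.0691). The fullest bin of V equalled the fullest of IV at 66 combined peaks.

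**Figure D4:**
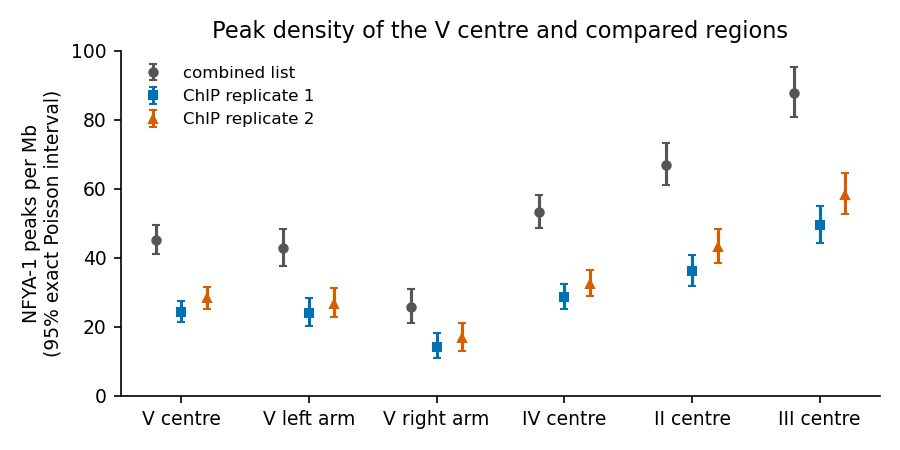
Points give NFYA-1 peaks per Mb in the V centre, the arms of V and the centres of IV, II and III, for the combined list and each replicate, with 95% exact Poisson intervals that cover counting error only. In each list the V centre lies near the left arm of V, above the right arm and below the centres of II and III.

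In support from the replicates no difference from the compared regions was called. Peaks held by both replicates made up 47.8% of the combined peaks on the V arms, 43.6% in the II centre, 48.3% in the III centre and 45.7% in the IV centre. The V centre minus each of these, in that order, was -2.26 percentage points (95% Newcombe interval -9.01 to 4.51), 1.98 (-4.35 to 8.29), -2.77 (-8.80 to 3.30) and -0.15 (-6.45 to 6.15). In Fisher's exact test, two-sided, the adjusted p ran from 0.614 to 1 over these 4 of the 8 comparisons. The intervals allow differences of several points either way. Strength was not tested. Its median was a −log10 q of 8.36 on the V arms, 7.73 in the II centre, 8.26 in the III centre and 7.70 in the IV centre. Median width, given as a description, was 340 bp on the V arms, 338 bp in the II centre, 319 bp in the III centre and 360 bp in the IV centre, against 361.5 bp in the V centre. Members covered 1.99% of the V centre, against 2.74% of the II centre, 3.19% of the III centre, 2.30% of the IV centre and 1.43% of the V arms, in the same order as the densities.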

How the data were processed

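The authors called peaks with PeakSeq on WormBase build WS180, per the file headers and source column, and deposited a q-value for each. Aligner, threshold and the way the lists were combined were not given in the sources used here. Per the labels' protocols, chromatin fixed with 2% formaldehyde was collected with anti-GFP antibodies. Input values and read depth were not analysed here.

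Peaks sharing at least 1 bp counted as found in both lists, and where several replicate peaks overlapped a combined peak the strongest was used. Densities were compared by the two-sided exact binomial test and shares by Fisher's exact test, with Benjamini-Hochberg adjustment over 8 comparisons and a threshold of 0.05. Shares carry Clopper-Pearson intervals. Bounds of the II, III and IV centres are round approximations of the low-recombination centres. The arms ran to the first and last peak of V. The regions named were the 12 strongest in both replicates, the 5 widest, the strongest of each other support class, those with the largest replicate ratios, and the extreme bins and gaps. Members, lists and bounds were chosen with earlier results of these data known. The functions were tested on simulated data with independent peak counts. In windows of 100 kb the real combined counts were more clustered, with a variance over mean of 1.82 in the V centre. The simulation therefore does not vouch for the intervals and p-values given here. Scripts ran in Python 3.11.15 with SciPy 1.17.1, NumPy 2.4.6 and pandas 2.3.3, and figures were drawn with matplotlib 3.10.9.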

Additional observations from a re-analysis of the deposited data

How the results depend on the processing

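The arms of V taken 1 at a time, the arms without 17 to 20 Mb and the V centre without each bin were chosen after seeing the data. The lower density against the centres of II and III passed under the 6 alternatives with other lists, thresholds or bounds and without each of the 10 bins, with ratios from 0.642 to 0.706 and from 0.477 to 0.532. The higher density than on the V arms no longer passed for peaks in both replicates (1.21), in the stronger part of the list (1.16), against the left arm alone (1.06) and without 17 to 20 Mb (1.06). With 1 replicate left out it ran from 1.23 to 1.25, and the call was lost without replicate 2. The lower density than in the IV centre no longer passed for peaks in both replicates (0.845), in the stronger part (0.889), with centres narrowed by 500 kb (0.860), or without the bin from 7 to 8 Mb (0.878) or from 8 to 9 Mb (0.868). With 1 replicate left out it ran from 0.854 to 0.869, and the call was lost in both cases. Fewer peaks entered most of these tests. The ratios against the V arms named here were also lower than the 1.27 of the main comparison. What lost each call was not tested. The share in both replicates, as V centre minus the other region, did not pass in any of 20 alternatives (Fisher's exact test, adjusted p from 0.162 to 1, and 0 with an unadjusted p under 0.05), and it turned sign in 3. It was 3.80 points against the V arms and 3.39 against the III centre in the stronger part of the list, and 1.13 against the IV centre with centres widened by 500 kb. With 1 replicate left out the quantity is another one, the share of combined peaks that the remaining replicate holds. Its difference ran from -1.19 to 0.603 points for the II centre and from -0.0736 to 0.206 for the IV centre. Between ChIP and input no paired analysis was possible because the files analysed here hold no input values. Within the ChIP libraries, regions paired by replicate gave mean ratios (geometric) of 1.24 for the V arms and of 0.664, 0.489 and 0.861 for the II, III and IV centres, a pairing added after seeing the data. Depth is unknown, so a weak peak missing from a list cannot be called absent.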
